A study of Homo sapiens with 9 samples.

Results

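NRF2, the product of NFE2L2, is a transcription factor that switches on genes of antioxidant defence and detoxification. In unstressed cells KEAP1, an adaptor of a CUL3 ubiquitin ligase, binds NRF2 and marks it for degradation, so that NRF2 is regulated largely as a protein; when cysteines of KEAP1 react with oxidants or electrophiles, NRF2 is spared, pairs with a small MAF protein and binds antioxidant response elements (AREs) in the promoters of its targets. Its best known targets supply reducing power through thioredoxin (TXN, TXNRD1, SRXN1) and glutathione (GCLC, GCLM), and remove quinones (NQO1) and heme (HMOX1). The messenger RNA of these 9 genes was examined in 3 lines of HCT116, a human colon carcinoma cell line. The genes were chosen by symbol from the table of read counts, and 9 of 9 were among its 11350 genes.

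HUWE1 encodes a large ubiquitin ligase with a catalytic cysteine in its HECT domain. The lines were the parental cells (HUWE1-P), cells whose endogenous catalytic cysteine was exchanged for serine by CRISPR (HUWE1-CS), and cells that went through the same exchange with cysteine put back (HUWE1-WT), and each was sequenced as 3 biological replicates without treatment. Both edited lines carry a blasticidin resistance gene joined to HUWE1 and were grown from single selected cells; whether the replicates of an edited line were 1 clone is not stated. All lines grew in medium that contained 2-mercaptoethanol, a reducing thiol. The comparison of HUWE1-CS with HUWE1-WT therefore shares the editing on both sides, and that of HUWE1-WT with HUWE1-P measures the editing without the serine.

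Total counts lay between 1610984 and 2060349 per library, so that 3 counts corresponded to 1.46 to 1.86 CPM (read counts relative to library size, TMM-normalized, the scale of all levels below). Pairs of replicates differed by more than counting noise (chi-square per degree of freedom from 1.16 to 1.65), and none was treated as a duplicate. HUWE1 itself fell from 543 ± 19.8 CPM in HUWE1-P and 469 ± 25.8 in HUWE1-WT to 336 ± 11.7 in HUWE1-CS (SD, n = 3); the exchanged codon is not visible in gene counts. Of 8 epithelial markers, 6 were in the table in every library, with EPCAM at 345 to 470 CPM. The lowest was CDX2 at 15.5 to 28.9 CPM, and VIL1 and LGALS4 were absent. Of 6 markers of other cells only COL1A1 was in the table, at 8.71 to 25.6 CPM. In bulk RNA, fewer cells that express a gene and less RNA per cell cannot be told apart.

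To show the letters through which NRF2 and MAF can bind, promoter windows of RefSeq (GRCh38.p14, from 250 bases before to 50 after the annotated start) were searched on both strands for the ARE core TGACNNNGC. Windows were found for 8 of the 9 genes, all but HMOX1. The core was present in 3 of the 8, TXNRD1, GCLM and KEAP1, against 19.5% of 8821 genes of the table with a window and 13.3% of all 35116 windows. The TXNRD1, GCLM and KEAP1 matches are printed because they are the ones in these genes, in the orientation of the motif, with the core in capitals and written 5′ to 3′. A match describes letters in a window and is not evidence of binding. Sites more than 250 bases before a start were not searched, so a gene without a match here may still have an ARE elsewhere.

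TXNRD1, chr12:104215670-104215698, 99 bases before the start, strand of the gene: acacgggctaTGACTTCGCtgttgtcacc
TXNRD1, chr12:104215761-104215789, 8 bases before the start, opposite strand: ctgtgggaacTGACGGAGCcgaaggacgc
TXNRD1, chr12:104286920-104286948, 102 bases before the other annotated start, opposite strand: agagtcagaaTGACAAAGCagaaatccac
GCLM, chr1:93909446-93909474, 34 bases before the start, opposite strand: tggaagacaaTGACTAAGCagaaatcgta
KEAP1, chr19:10502807-10502835, 54 bases before the start, strand of the gene: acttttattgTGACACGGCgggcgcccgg
KEAP1, chr19:10502784-10502812, 31 bases before the start, opposite strand: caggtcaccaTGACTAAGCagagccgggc

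The longer form TGACTCAGC, in which the core overlaps the AP-1 motif TGACTCA, was in 0 of the 8 windowed genes and in 0.680% of the 8821 genes. Among 39 other genes of the pathway with a window, it stood in 3 (7.69%), GSTP1, ME1 and PIR. The shorter core TGACNNNGC was in 15 of the 39 (38.5%), beside 19.5% of the 8821 genes. GSTP1, ME1 and PIR are printed because the first 2 recur below with opposite directions.

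GSTP1, chr11:67583736-67583764, 66 bases before the start, strand of the gene: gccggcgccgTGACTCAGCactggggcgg
ME1, chr6:83431170-83431198, 137 bases before the start, strand of the gene: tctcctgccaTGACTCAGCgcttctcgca
PIR, chrX:15493289-15493317, 26 bases after the start, opposite strand: agcctcaccgTGACTCAGCgcttcgcggc

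In HUWE1-CS cells TXNRD1 fell by 39.7% against HUWE1-P and fell by 39.8% against HUWE1-WT, and SRXN1 fell by 18.2% against HUWE1-P. The other 7 genes, NFE2L2 and KEAP1 among them, did not pass the test in any comparison. A gene was called changed at a false discovery rate of at most 0.01 over all 11350 genes in edgeR's quasi-likelihood test. Against HUWE1-P, 2 of the 9 genes were called, both lower (22.2%), beside 17.0% of all genes, of which 8.58% were lower and 8.46% higher. Against HUWE1-WT, 1 of 9 was called lower (11.1%), beside 15.5% of all genes, of which 8.08% were lower. Those shares lie near the background, so that the genes did not stand out as a group by their number of calls. The median log2 fold change of the 9 genes was 0.04 against HUWE1-P and -0.05 against HUWE1-WT, beside -0.01 and 0.00 over all genes. Both comparisons use the same HUWE1-CS libraries and are not independent of each other.

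**Figure D1:**
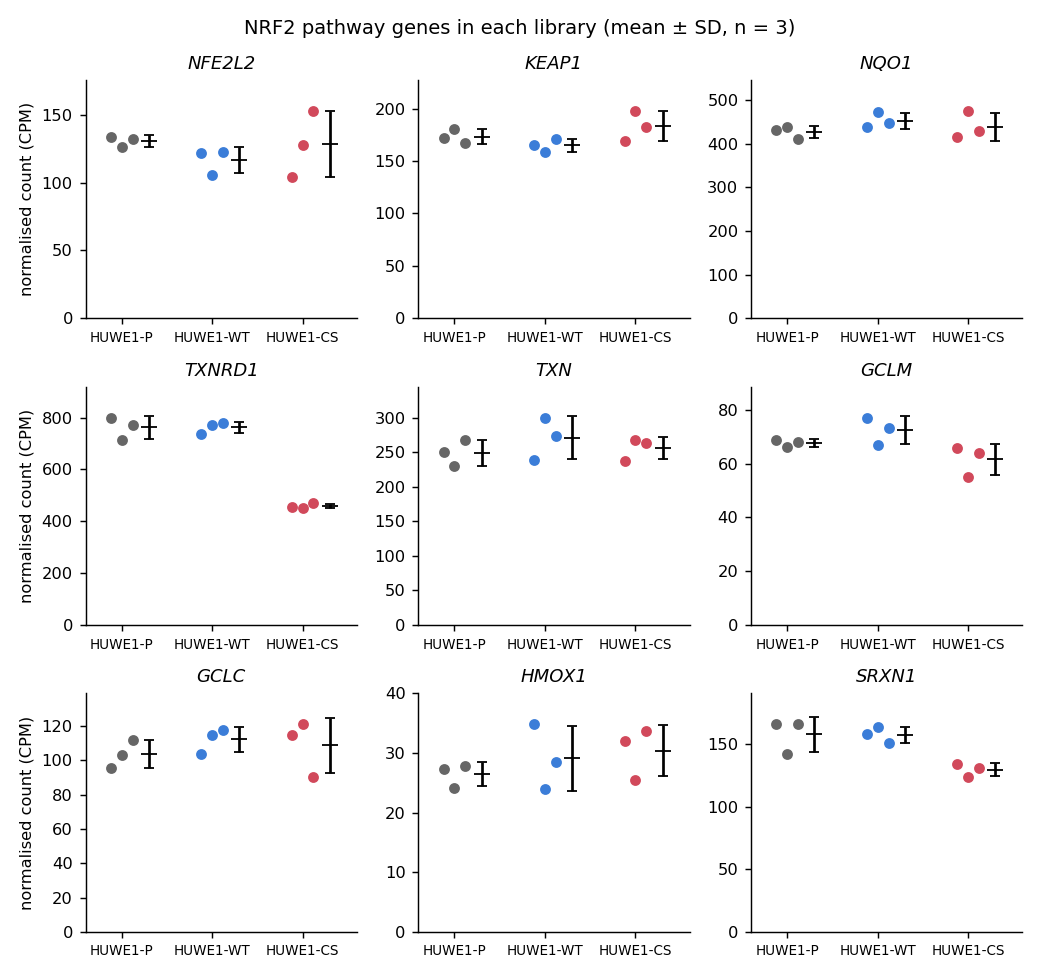
Normalised counts (CPM, y axis from 0) of the 9 NRF2 pathway genes in each library of the 3 lines; points are libraries, and the bars beside them are mean ± SD of 3. TXNRD1 in HUWE1-CS sits at 453 to 469 CPM, apart from the control libraries at 713 to 800, while the points of NFE2L2, NQO1, TXN, GCLC and HMOX1 overlap between lines.

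The mRNA of the factor itself and of its inhibitor came first. NFE2L2 (GRCh37 chr2:178083395-178257484, minus strand) was at 134, 126 and 132 CPM in the HUWE1-P libraries, 122, 106 and 123 in HUWE1-WT, and 104, 128 and 153 in HUWE1-CS. The HUWE1-CS libraries spanned the range of both control lines, with the lowest and the highest value of all 9. NFE2L2 differed by -0.03 on the log2 scale between HUWE1-CS and HUWE1-P (95% interval -0.22 to 0.16, edgeR adjusted p = 0.873) and by 0.13 between HUWE1-CS and HUWE1-WT (-0.06 to 0.33, adjusted p = 0.341). These values concern messenger RNA; NRF2 protein was not measured here.

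KEAP1 (chr19:10596801-10614234, minus strand) was at 172, 181 and 167 CPM in HUWE1-P, 165, 159 and 171 in HUWE1-WT, and 169, 198 and 183 in HUWE1-CS. The lines overlapped, although 2 of the 3 HUWE1-CS libraries were above all controls. Its log2 difference was 0.08 against HUWE1-P (interval -0.07 to 0.24, edgeR adjusted p = 0.481) and 0.16 against HUWE1-WT (0.00 to 0.32, adjusted p = 0.157).

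The thioredoxin branch held both called genes. TXNRD1 (chr12:104609557-104744085, plus strand, 15 exons in its longest annotated transcript) encodes the cytosolic thioredoxin reductase, a selenoprotein that uses NADPH to keep thioredoxin reduced. It was at 800, 713 and 773 CPM in HUWE1-P, 738, 772 and 778 in HUWE1-WT, and 456, 453 and 469 in HUWE1-CS. No HUWE1-CS library came near a control, and the mean fell from 762 ± 44.7 and 762 ± 21.7 CPM to 459 ± 8.58 (SD, n = 3). TXNRD1 fell to a fold of 0.603 against HUWE1-P (log2 fold change -0.73, SE 0.0612, 95% interval -0.85 to -0.61, edgeR adjusted p = 3.34e-18). Against HUWE1-WT the fold was 0.602 (log2 fold change -0.73, SE 0.0613, edgeR adjusted p = 3.59e-18). By p-value TXNRD1 ranked 44 of the 11350 genes in the first of these comparisons and 41 in the other.

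SRXN1 (chr20:627259-633844, minus strand, 2 exons) encodes sulfiredoxin, which restores peroxiredoxins whose cysteine has been overoxidised. It was at 166, 142 and 166 CPM in HUWE1-P, 158, 164 and 151 in HUWE1-WT, and 134, 124 and 131 in HUWE1-CS. The HUWE1-CS libraries lay below all 6 controls, the gap to the nearest, HUWE1-P replicate 2, being smaller than the spread within HUWE1-P. The fold against HUWE1-P was 0.818 (log2 fold change -0.29, SE 0.0867, 95% interval -0.46 to -0.12, edgeR adjusted p = 0.00728). Against HUWE1-WT it was 0.822, of the same size, but the edgeR adjusted p of 0.0107 missed the threshold. The call against HUWE1-P was lost with DESeq2 (adjusted p = 0.0552) and without HUWE1-P replicate 1 (edgeR adjusted p = 0.0473), HUWE1-P replicate 3 (0.0650), or HUWE1-CS replicate 1 (0.0139), 2 (0.0420) or 3 (0.0201), and the log2 fold change stayed between -0.36 and -0.25 over the 21 alternative settings.

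TXN (chr9:113006090-113018787, minus strand), thioredoxin, is the substrate of the reductase. Its libraries were at 250, 230 and 267 CPM in HUWE1-P, 238, 300 and 274 in HUWE1-WT, and 237, 267 and 264 in HUWE1-CS. The lines overlapped, with a log2 difference of 0.04 against HUWE1-P (interval -0.11 to 0.19, edgeR adjusted p = 0.765) and -0.08 against HUWE1-WT (-0.23 to 0.06, adjusted p = 0.451). Its interval against HUWE1-P does not overlap that of TXNRD1; the difference between the 2 genes was not tested itself.

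Glutamate-cysteine ligase makes the first and rate-limiting bond of glutathione. Its catalytic subunit GCLC (chr6:53362139-53481768, minus strand) was at 95.6, 103 and 112 CPM in HUWE1-P, 104, 115 and 118 in HUWE1-WT, and 115, 121 and 90.6 in HUWE1-CS. HUWE1-CS held both the highest and the lowest library, and the log2 difference was 0.06 against HUWE1-P (interval -0.14 to 0.26, edgeR adjusted p = 0.702) and -0.05 against HUWE1-WT (adjusted p = 0.783).

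The modifier subunit GCLM (chr1:94350755-94375012, minus strand) was at 68.9, 66.2 and 67.9 CPM in HUWE1-P, 77.1, 67.1 and 73.3 in HUWE1-WT, and 65.9, 55.0 and 63.9 in HUWE1-CS. The HUWE1-CS libraries were below all controls by a gap of less than 1 CPM, and the test called neither comparison: the log2 difference was -0.14 against HUWE1-P (interval -0.38 to 0.10, edgeR adjusted p = 0.437) and -0.23 against HUWE1-WT (-0.47 to 0.00, adjusted p = 0.149). Together with TXNRD1 and SRXN1, this made 3 of 9 genes (33.3%) with all HUWE1-CS libraries beyond all 6 controls, each of them lower, beside 26.3% of all genes in either direction and 13.4% lower.

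NQO1 (chr16:69740899-69760571, minus strand), a quinone reductase and a common readout of NRF2 activity, was at 431, 438 and 411 CPM in HUWE1-P, 437, 472 and 448 in HUWE1-WT, and 414, 475 and 428 in HUWE1-CS. The lines overlapped, and the intervals were narrow: the log2 difference was 0.04 against HUWE1-P (-0.09 to 0.17, edgeR adjusted p = 0.678) and -0.04 against HUWE1-WT (-0.17 to 0.09, adjusted p = 0.688). HMOX1 (chr22:35776354-35790207, plus strand), heme oxygenase 1, was the member with the fewest counts, 43 to 60 per library. Its levels were 27.3, 24.1 and 27.9 CPM in HUWE1-P, 34.8, 24.0 and 28.5 in HUWE1-WT, and 32.0, 25.5 and 33.7 in HUWE1-CS. At this depth its interval against HUWE1-P, from -0.16 to 0.55 around 0.20 (edgeR adjusted p = 0.453), leaves room for a rise of up to 46.1% or a fall of up to 10.2%.

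**Figure D2:**
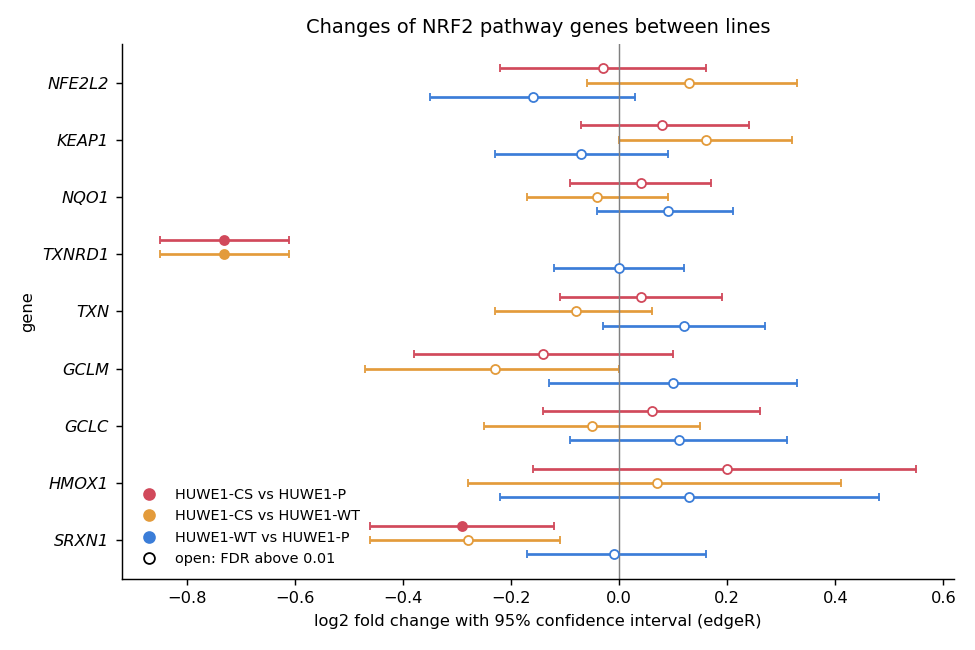
Log2 fold change (x axis) with its 95% confidence interval from edgeR for the 9 genes in the 3 comparisons; filled points have a false discovery rate of at most 0.01. TXNRD1 stands at -0.73 in both comparisons with HUWE1-CS and at 0.00 in HUWE1-WT vs HUWE1-P, and SRXN1 at -0.29 and -0.28 is filled only against HUWE1-P.

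Between HUWE1-WT and HUWE1-P, edgeR called 0 of the 9 genes, beside 0.0617% of all genes (0.00881% higher and 0.0529% lower), and 0 of the 9 had an unadjusted p under 0.05; DESeq2 and limma-voom called 0 of the 9 as well. The log2 differences ran from -0.16 for NFE2L2 (interval -0.35 to 0.03) to 0.13 for HMOX1 (-0.22 to 0.48). TXNRD1 differed by 0.00 (interval -0.12 to 0.12) and SRXN1 by -0.01 (-0.17 to 0.16). Effects of the serine and of the single cells from which a line was grown cannot be told apart in these 3 lines.

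Levels of different genes were compared as CPM per kilobase of the longest annotated transcript, which may not be the transcript expressed. In HUWE1-P, TXN stood highest at 338 ± 25.0 CPM per kilobase, followed by TXNRD1 at 192 ± 11.3 and NQO1 at 169 ± 5.39 (SD, n = 3). KEAP1 at 65.5 ± 2.71 and SRXN1 at 62.6 ± 5.55 did not differ beyond their spread. NFE2L2 at 31.4 ± 0.969, GCLC at 27.4 ± 2.14, HMOX1 at 17.0 ± 1.31 and GCLM at 13.9 ± 0.277 followed. In HUWE1-CS, TXNRD1 at 116 ± 2.16 CPM per kilobase came below NQO1 at 174 ± 12.7, the reverse of their order in HUWE1-P.

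The other genes of the pathway were sorted by role into 6 lists with 51 genes in the table. Against HUWE1-P, 13 of the 51 rose and 4 fell in HUWE1-CS, 33.3% beside 17.0% of all genes (8.46% higher and 8.58% lower). The median log2 fold change was -0.06 beside -0.01. Against HUWE1-WT, 10 rose and 3 fell, 25.5% beside 15.5% of all genes (7.42% higher and 8.08% lower). In HUWE1-WT vs HUWE1-P, edgeR called 0 of the 51, and 2 had an unadjusted p under 0.05 in edgeR. DESeq2 called 0 of all genes there. With the trend of fold change with transcript length removed, 9 rose and 5 fell against HUWE1-P and 9 rose and 7 fell against HUWE1-WT. Calls thus went in both directions, with more rises than falls, and the median stayed near 0. Of the 17 called against HUWE1-P, genes that included DPP3, GSTO1, GGT1, ABCC4, TKT, AKR1B1 and PRDX1 lost the call under at least 1 of the 21 alternative settings.

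Among 12 regulators and partners of NRF2, 2 rose and 0 fell against HUWE1-P, 16.7% beside 17.0% of all genes and so at the background. NFE2L1, a related factor that binds similar elements, rose from 284 ± 9.58 to 348 ± 17.3 CPM (log2 fold change 0.29, edgeR adjusted p = 4.26e-04), and its difference from HUWE1-WT was 0.20 (adjusted p = 0.0183, not called). DPP3, a peptidase that can bind KEAP1, rose by 0.40 against HUWE1-P and 0.42 against HUWE1-WT; it is named here after its values were seen. The remaining 10, with CUL3 at -0.09, SQSTM1 at -0.16 and BACH1, a repressor at AREs, at -0.33 (edgeR adjusted p = 0.171), were not called against HUWE1-P.

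Of 13 genes of glutathione use and conjugate export, 3 rose and 3 fell against HUWE1-P, 46.2% beside 17.0% of all genes (8.46% higher and 8.58% lower). GSTP1, a glutathione transferase, was at 464 to 521 CPM in HUWE1-P, 470 to 512 in HUWE1-WT and 805 to 955 in HUWE1-CS. It rose 1.82-fold against HUWE1-P (log2 fold change 0.86, SE 0.0625, edgeR adjusted p = 8.11e-22) and 1.78-fold against HUWE1-WT. GSS, glutathione synthetase, which adds the last amino acid of glutathione, rose by 0.59 and 0.47 on the log2 scale against the 2 control lines (edgeR adjusted p = 6.62e-06 and 3.29e-04). ABCC2, an exporter of glutathione conjugates, fell from 165 to 173 CPM in HUWE1-P and 140 to 212 in HUWE1-WT to 65.8 to 73.2 in HUWE1-CS (log2 fold change -1.28 in both comparisons, edgeR adjusted p = 7.79e-19 and 1.11e-18). Of genes named after their values were seen, GSTO1 rose by 0.32, GGT1 fell by 0.93 and ABCC4 fell by 0.42 against HUWE1-P. Against HUWE1-WT, GSTO1 was called as well (edgeR adjusted p = 0.00553), but GGT1 (0.0298) and ABCC4 (0.0193) were not. GGT1 had only 13 to 17 counts per HUWE1-CS library. GLRX, glutaredoxin, was called only against HUWE1-WT, where it fell by 0.85. SLC7A11, the cystine carrier, differed by -0.08 and GSR, glutathione reductase, by -0.04, and neither was called.

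Of 6 genes that supply NADPH, the cofactor of TXNRD1 and NQO1, 2 rose and 1 fell against HUWE1-P (50.0% beside 17.0% of all genes, in a list too small to read more from). ME1, the cytosolic malic enzyme, was at 113 to 133 CPM over the 6 control libraries and at 87.9 to 90.2 in HUWE1-CS, a log2 fold change of -0.49 in both comparisons (edgeR adjusted p = 4.16e-05 and 4.21e-05). TKT, transketolase of the pentose phosphate pathway, named after its values were seen, rose by 0.19 against HUWE1-P. It differed by 0.13 from HUWE1-WT (edgeR adjusted p = 0.103, not called). ME1 and GSTP1, whose windows hold the same 9 letters printed above, thus moved in opposite directions; PIR, with the same letters, differed by -0.41 and was not called (edgeR adjusted p = 0.0998).

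Of 7 genes of heme and iron handling, 3 rose and 0 fell against HUWE1-P, 42.9% beside 17.0% of all genes, of which 8.46% were higher. With the length trend removed, 3 rose and 1 fell against HUWE1-P, and the median went from 0.12 to -0.04. Against HUWE1-WT, 3 rose and 0 fell in the reported fit, with a median of -0.10. With the length trend removed, 3 rose and 2 fell there, again with a median of -0.10. FTL, ferritin light chain, rose from 1266 ± 46.0 to 1757 ± 121 CPM (log2 fold change 0.47, edgeR adjusted p = 1.82e-11). With the length trend removed, the change of FTL was 0.28 and still called. FECH, which inserts iron to form heme, rose from 58.6 ± 5.24 to 84.1 ± 8.63 CPM (log2 fold change 0.51, edgeR adjusted p = 3.66e-04). Against HUWE1-WT, FECH rose by 0.45 (edgeR adjusted p = 0.00222). That call was lost with DESeq2 (adjusted p = 0.0247) and without HUWE1-WT replicate 2 (edgeR adjusted p = 0.0182) or HUWE1-CS replicate 1 (0.0293). FTH1, ferritin heavy chain, named after its values were seen, rose by 0.33. Ferritin genes have many processed pseudogenes, and how reads shared with such copies were counted is not stated, which leaves FTL and FTH1 uncertain in level.

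Of 7 genes of carbonyl and xenobiotic metabolism, 2 rose and 0 fell against HUWE1-P, 28.6% beside 17.0% of all genes. ALDH3A2, a fatty aldehyde dehydrogenase, was at 87.5 to 107 CPM in HUWE1-P, 103 to 126 in HUWE1-WT and 177 to 180 in HUWE1-CS, a log2 fold change of 0.84 against HUWE1-P and 0.67 against HUWE1-WT (edgeR adjusted p = 6.02e-13 and 1.64e-09). AKR1B1, aldose reductase, rose by 0.42 and 0.43 on the log2 scale, near the threshold in both (edgeR adjusted p = 0.00844 and 0.00750). The call against HUWE1-P was lost in 9 of 21 settings, among them those without HUWE1-P replicate 2 or 3 or without HUWE1-CS replicate 1 or 2 (adjusted p from 0.0403 to 0.0801), and that against HUWE1-WT in 10, among them those without any 1 of the HUWE1-WT libraries or without HUWE1-CS replicate 1 or 2 (0.0175 to 0.0739). Of the 6 other reported targets, PRDX1, a peroxiredoxin of the kind that sulfiredoxin restores, rose by 0.19 against HUWE1-P (edgeR adjusted p = 0.00751) and differed by 0.17 from HUWE1-WT (adjusted p = 0.0172, not called); its call was lost without HUWE1-P replicate 1, 2 or 3, HUWE1-WT replicate 3, or HUWE1-CS replicate 2 or 3 (adjusted p from 0.0108 to 0.0531). The other 5 were not called. AKR1C1, AKR1C2, AKR1C3, AKR1B10 and GPX2, strongly induced NRF2 targets in many cells, were not found by symbol among the 11350 genes and so were not tested.

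For comparison, of 22 general antioxidant genes that are less tied to NRF2, 8 rose and 2 fell against HUWE1-P (45.5% beside 17.0% of all genes, median log2 fold change 0.24 beside -0.01), and 7 rose and 2 fell against HUWE1-WT (40.9% beside 15.5%, median 0.15 beside 0.00). Of the 22, 12 lie in the bin of the shortest transcripts, of 8 bins of equal size, where the median over all genes was 0.16 against HUWE1-P. With the length trend removed, 6 of the 22 rose and 2 fell against HUWE1-P with a median of 0.09, and 5 rose and 3 fell against HUWE1-WT with a median of 0.07. GPX1, a glutathione peroxidase and selenoprotein like TXNRD1, rose from 238 to 263 CPM in HUWE1-P to 483 to 512 in HUWE1-CS (log2 fold change 0.98, edgeR adjusted p = 3.15e-23). PRDX5, a mitochondrial and peroxisomal peroxiredoxin, rose by 0.70 (edgeR adjusted p = 4.00e-12). Of the other selenoproteins in the list, named after their values were seen, TXNRD2, the mitochondrial thioredoxin reductase, rose by 0.69 against HUWE1-P and 0.61 against HUWE1-WT (edgeR adjusted p = 0.00140 and 0.00490). GPX4 rose by 0.31 against HUWE1-P and differed by 0.21 from HUWE1-WT (adjusted p = 0.0261, not called), and MSRB1 differed by -0.35 and -0.52 (adjusted p = 0.126 and 0.0138), called in neither.

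**Figure D3:**
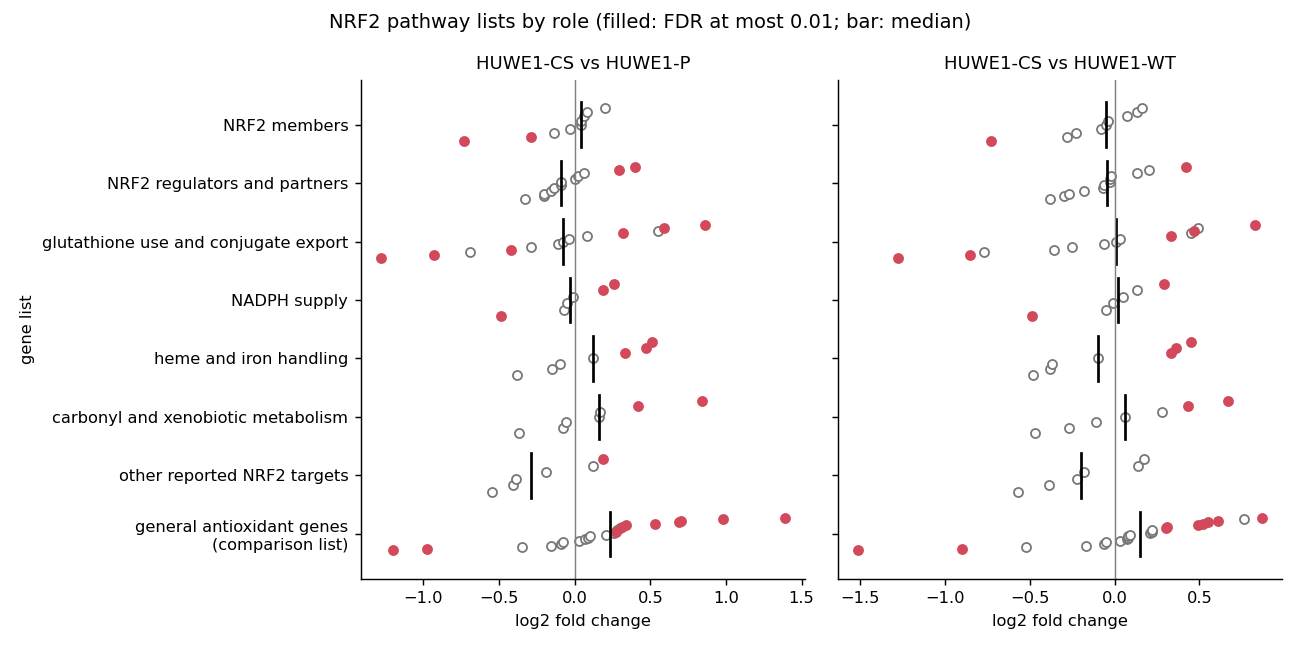
Log2 fold change (x axis) of each gene in the 9 members, the 6 pathway lists and the comparison list, for HUWE1-CS vs HUWE1-P and HUWE1-CS vs HUWE1-WT; filled points have a false discovery rate of at most 0.01 and the vertical bar is the list's median. Filled points lie on both sides of 0 for the glutathione and NADPH lists, from ABCC2 at -1.28 to GSTP1 at 0.86.

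Fold changes in HUWE1-CS moved with transcript length over the whole table. In 8 bins of equal size, the median log2 fold change against HUWE1-P went from 0.16 in the shortest transcripts, where TXN and HMOX1 lie, to -0.13 in the longest, and against HUWE1-WT from 0.15 to -0.07. TXNRD1, of 3974 bases, lies in a bin with a median of -0.04, and SRXN1, of 2528 bases, in one with 0.04. With the trend removed, TXNRD1 stood at -0.70 and SRXN1 at -0.33 against HUWE1-P, both still called. TXN, of 737 bases, changed sides against HUWE1-P, from 0.04 to -0.18 (edgeR adjusted p = 0.0400, not called). Against HUWE1-WT, TXN was negative in both fits, going from -0.08 to -0.27, where it was called lower (edgeR adjusted p = 0.00161). PRDX1 lost its call, at 0.05 (edgeR adjusted p = 0.446), as did AKR1B1 at 0.29 (adjusted p = 0.0774).

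**Figure D4:**
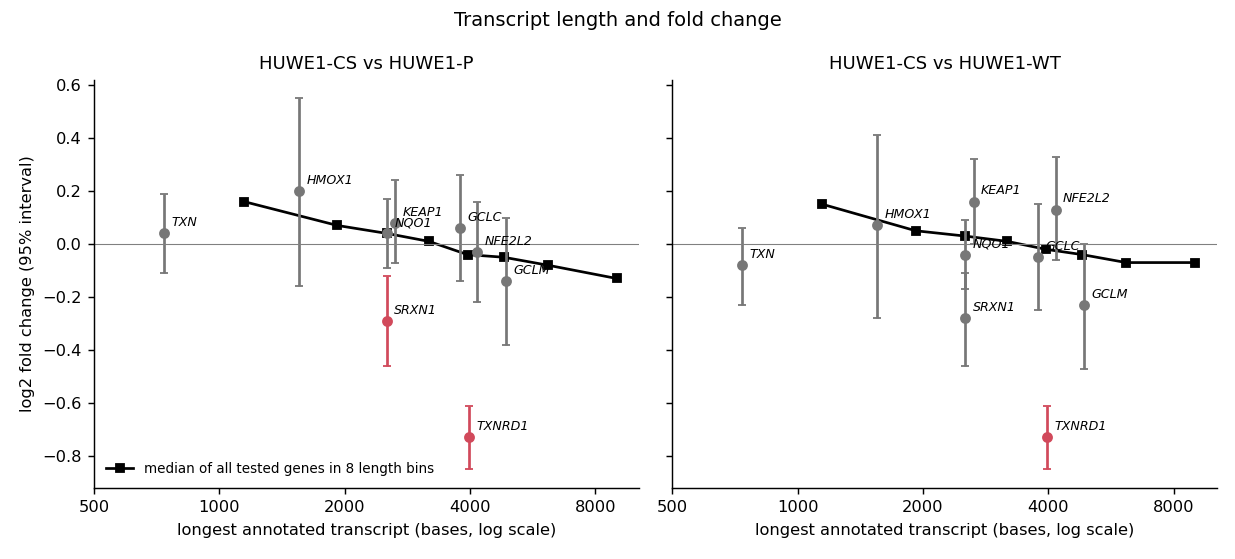
Longest annotated transcript (x axis, bases, log scale) against log2 fold change (y axis) in HUWE1-CS vs HUWE1-P and vs HUWE1-WT; squares joined by a line are medians of all tested genes in 8 length bins, circles the 9 members with 95% intervals, red where called. The line falls from 0.16 to -0.13 on the left, and TXNRD1 at -0.73 lies far below the line at its length.

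Neighbouring genes did not move with TXNRD1 as a block. Of the 10 nearest genes of the table, 5 on each side, 1 fell and 1 rose against HUWE1-P, with a median log2 fold change of -0.07. Over all genes, 8.58% fell and 8.46% rose. RPL18AP3, a ribosomal protein pseudogene inside TXNRD1 on the same strand, was higher by 0.40 (edgeR adjusted p = 2.27e-08); reads of overlapping genes, or of the parent of a pseudogene, could have been counted on either. Of the 10 nearest to SRXN1, edgeR called 0, with a median of 0.05. Around GCLM, which was not called itself, 4 of the 10 nearest fell and 0 rose, with a median of -0.28.

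The genes whose pattern over the 9 libraries was nearest to NFE2L2, by the root mean square difference of centred log2 CPM among 8182 genes of at least 20 CPM, were CALCOCO2 (0.0646), MED12 (0.0748), POLH (0.0770), TMEM263 (0.0849) and ARFGEF2 (0.0924), beside a median of 0.234. By the same measure, a list made after its values were seen, CCDC86 (0.0609), RDX (0.0655), RRM2 (0.0656), ADAM9 (0.0683) and FAM98A (0.0714) were nearest to TXNRD1, beside a median of 0.375. None of these belongs to the pathway lists, and their log2 fold changes against HUWE1-P ran from -0.14 to 0.02 for the first 5 and from -0.81 to -0.64 for the others.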

How the data were processed

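The authors prepared libraries from polyadenylated RNA, trimmed single-end reads (Skewer), aligned them to hg19 (STAR 2.5.4 in the submitters' notes) and deposited unnormalized read counts per gene. How reads were counted, on which annotation and strand, and which low genes were dropped is not given in the sources used here. The other deposited tables hold the authors' edgeR comparisons (log fold change, mean log CPM, F, p-value and FDR) and were not used. Genes without a symbol (147, with 0.505% of counts) were kept.

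Counts were fitted with edgeR 4.0.16 in R 4.3.3 (TMM, glmQLFit with the estimator of earlier versions, glmQLFTest) over all 9 libraries, with Benjamini-Hochberg adjustment over 11350 genes and a limit of 0.01. The p-values and intervals rest on the spread between the 3 libraries of a line, estimated largely over all genes together. By the median over genes, 89.5 of 95.5 degrees of freedom came from this pooled estimate. A gene whose own libraries spread widely can thus get a narrow interval. Levels are TMM-normalized CPM, as mean ± SD. Lengths and positions came from GENCODE on GRCh37 and promoter windows from RefSeq on GRCh38.p14. Members and lists were chosen with earlier results of these data known; the lists were typed from general knowledge. Named genes were all members; of the 6 pathway lists, up to 6 genes with the highest and 6 with the lowest fold change among those called against both control lines, and the smallest p of each list; the 2 smallest p of the comparison list; the 5 genes most like NFE2L2; and HUWE1. Others are marked in the text, and 1 gene of the lists is not reported here by name. Alternatives were DESeq2 1.42.0, limma-voom (limma 3.58.1), RLE size factors, total counts, at least 10 counts in every library, the edgeR 4 estimator, a robust fit, a fit of only the compared pair of lines, the replicate number as a block, removal of the trend with transcript length, both of these together, an FDR of 0.05, and omission of each library. Procedures were tested on simulated data.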

Additional observations from a re-analysis of the deposited data

How the results depend on the processing

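Over 21 alternative settings, TXNRD1 stayed called and lower in HUWE1-CS, with log2 fold changes from -0.78 to -0.69 against HUWE1-P and from -0.76 to -0.70 against HUWE1-WT. Of the 9 members, 2 were called against HUWE1-P in the reported fit, 1 with DESeq2, and 1 to 2 when a library was left out. Against HUWE1-WT, 1 was called in the reported fit and whichever library was left out. There, 2 were called with total counts, with at least 10 counts in every library, with a robust fit, with the replicate block and at an FDR of 0.05, SRXN1 being added, and 3 with the length trend removed and with the replicate block and the length trend removed together, SRXN1 and TXN being added. Between HUWE1-WT and HUWE1-P, 0 were called in all 21. SRXN1 lost its call against HUWE1-P in 6 of 21 settings and gained one against HUWE1-WT in 7. Of the other 51 pathway genes, 17 were called against HUWE1-P, 11 with DESeq2, and 10 to 17 with a library left out: 10 without HUWE1-P replicate 1, HUWE1-P replicate 3 or HUWE1-CS replicate 2, and 11 without HUWE1-P replicate 2. Against HUWE1-WT, 13 were called, 7 with DESeq2, 20 at an FDR of 0.05, and 8 to 13 with a library left out, the 8 without HUWE1-WT replicate 3. The cause of these losses was not tested. Among members and pathway genes, 10 were called against HUWE1-P in every setting (TXNRD1, NFE2L1, GSS, GSTP1, ABCC2, ME1, FTH1, FTL, FECH and ALDH3A2) and 8 against HUWE1-WT (the same without NFE2L1 and FECH); PRDX1 and AKR1B1 each lost the call against HUWE1-P in 9 settings. Over all genes, DESeq2 called 1088, 998 and 0, and an FDR of 0.05 gave 2999, 2774 and 13, against HUWE1-P, against HUWE1-WT and between the 2 controls, where 4 were called with at least 10 counts in every library, 1 with a robust fit and 1 to 19 with a library left out.

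Signs turned only for differences that were not called in the reported fit. With the length trend removed, with or without the replicate block, NFE2L2 stood at 0.01 and TXN at -0.18 against HUWE1-P, and HMOX1 at -0.02 against HUWE1-WT. With a library left out, the ranges that cross 0 were, against HUWE1-P, -0.16 to 0.10 for NFE2L2, -0.01 to 0.08 for NQO1, -0.02 to 0.10 for TXN and -0.01 to 0.19 for GCLC; against HUWE1-WT, 0.00 to 0.26 for NFE2L2, -0.17 to 0.01 for TXN, -0.13 to 0.08 for GCLC and -0.05 to 0.21 for HMOX1; and between the controls, -0.04 to 0.04 for TXNRD1, -0.02 to 0.26 for HMOX1 and -0.08 to 0.03 for SRXN1. Correlations of deviations over 8183 genes ran from -0.0316 to 0.0934 for libraries of the same number and from -0.0950 to 0.0325 for the others. The highest were thus between libraries of the same number, though all were small, and the reported fit did not treat the numbers as pairs. The replicate block changed no call of a member other than that of SRXN1. Of the other named genes, PRDX1 gained a call against HUWE1-WT with it (edgeR adjusted p = 0.00653). With 43 to 60 counts per library, HMOX1 was the member whose change was least well resolved.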
